A study of Mus musculus with 23 samples.

Results

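The nonclassical major histocompatibility complex (MHC) class Ib genes H2-T23, H2-T22, H2-Q4, H2-Q6, H2-Q7 and H2-M3 were followed across every library of a mouse melanoma RNA sequencing series. They are taken by gene symbol, as a list drawn up with earlier results of these data known, and are 6 of the 47643 genes in the deposited expression table, which gives TPM, a length-scaled share of each library's transcripts. All 23 libraries derive from B16F10, a mouse melanoma line grown as cultures or as grafts in male C57BL/6 mice. Of these, 18 fall into 3 sample types (bulk tumors, sorted tumor cells and cultures), each with 2 control libraries labeled WT and 2 libraries for each of the CRISPR guides sg492 and sg495, labeled NR2F6 KO. NR2F6 is an orphan nuclear receptor. The guides were introduced with Cas9 protein as Cy3-labeled RNA, and Cy3-positive cells were collected by fluorescence-activated sorting. Sorted tumor cells were obtained by collagenase D digestion and magnetic depletion of stromal cells, with purity judged by CD45 staining. The other 5 libraries carry the WT label and are named for antibody treatment, 2 for IgG, a control antibody, and 3 for anti-PD1, which blocks an inhibitory receptor of T cells. Their labels give no sample type, and the study text describes no RNA sequencing of such samples. Listed sequencing depth was 23 to 31 M reads a library, but TPM keeps no depth.

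RNA of the targeted gene, which does not measure its protein, differed between guides. The study checked the knockout by immunoblotting and by sequencing the targeted regions. Nr2f6 itself, the targeted gene, was at 31.88 and 32.9 TPM in the cultured controls. The sg492 cultures had 26.55 and 31.5 TPM and the sg495 cultures 18.55 and 22.43 TPM, which was lower by limma (log2 fold change -0.64, adjusted p = 0.0213). In sorted tumor cells, Nr2f6 was at 20.32 and 17.73 TPM in the controls, at 10.6 and 12.18 TPM with sg495 and at 19.84 and 25.7 TPM in the libraries labeled sg492, of which neither was below both controls. The sg495 log2 fold change was -0.69 there and -0.60 in bulk tumors (limma adjusted p = 0.126 and 0.0865). Bulk controls held Nr2f6 at 25.83 and 25.24 TPM and bulk sg492 libraries at 22.31 and 23.31 TPM (log2 fold change -0.16, limma adjusted p = 0.678). Melanocyte markers, summed over 6 genes, lay between 14595 and 17580 TPM in the 18 libraries of the 3 sample types and between 1634 and 4907 TPM in the IgG and anti-PD1 libraries. The leukocyte markers, summed over 9 table entries, ran the other way, from 379 to 820 TPM in bulk tumors, 4.85 to 14.1 TPM in sorted tumor cells, 2.67 to 6.68 TPM in cultured cells and 6067 to 9787 TPM in the IgG and anti-PD1 libraries.

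Class Ib molecules share the fold of the classical class I molecules H2-K and H2-D and pair with β2-microglobulin, but they vary little between individuals and are read by specialized receptors. H2-T23 encodes the heavy chain of Qa-1, which displays leader peptides of classical class I molecules to the CD94-NKG2A receptor of natural killer (NK) and CD8 T cells. H2-T22 encodes a molecule bound directly by a subset of γδ T cells. H2-Q6 and H2-Q7 encode Qa-2, H2-Q4 is their neighbor in the Q region, and H2-M3 presents peptides that begin with N-formylmethionine, as bacterial and mitochondrial proteins do. Interferons raise class I genes through elements in their promoters, and NLRC5 is a transactivator of class I genes that acts on a conserved group of promoter boxes.

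All of these genes lie on chromosome 17 (GRCm38) and are annotated as protein coding. In order along the chromosome they are H2-Q4 (chr17:35379617-35385290, plus strand), H2-Q6 (chr17:35424850-35430055, plus), H2-Q7 (chr17:35439155-35443773, plus), H2-T23 (chr17:36029773-36032855, minus), H2-T22 (chr17:36037128-36042747, minus) and H2-M3 (chr17:37270220-37274484, plus). H2-Q6 and H2-Q7 are separated by 9099 bases and H2-T23 and H2-T22 by 4272 bases, whereas 585999 bases part H2-Q7 from H2-T23 and 1227472 bases part H2-T22 from H2-M3.

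The promoter stretches that hold the matches described next are shown so that the sequences of the 6 promoters can be compared. They are taken from the RefSeq promoter table of build GRCm38.p6, which covers 250 bases before to 50 bases after each start site and matched all 6 genes, and are written 5′ to 3′ on the gene's strand. Capitals mark an interferon-element-like word, either a TTTC pair with any NN between or TTTCACTT, then TGATGAC, which resembles the X2 box, and then CCAAT or its reverse complement, which resembles the Y box. The intervals are chr17:36032806-36032835 (minus strand) for H2-T23, of which only 30 bases are printed, chr17:36042795-36042939 (minus) for H2-T22, chr17:35379458-35379572 (plus) for H2-Q4, chr17:35424692-35424805 (plus) for H2-Q6, chr17:35439036-35439149 (plus) for H2-Q7 and chr17:37270127-37270208 (plus) for H2-M3. The H2-T23 stretch lies before its RefSeq start but inside the gene interval given above, which begins further upstream.
H2-T23: atcctactgcTTTCTCTTTCataaagacac
H2-T22: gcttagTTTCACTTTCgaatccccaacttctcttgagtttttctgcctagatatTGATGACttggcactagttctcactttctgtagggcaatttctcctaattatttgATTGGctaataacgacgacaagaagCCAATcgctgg
H2-Q4: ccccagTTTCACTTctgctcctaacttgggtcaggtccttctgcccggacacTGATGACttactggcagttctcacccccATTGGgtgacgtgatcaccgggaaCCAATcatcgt
H2-Q6: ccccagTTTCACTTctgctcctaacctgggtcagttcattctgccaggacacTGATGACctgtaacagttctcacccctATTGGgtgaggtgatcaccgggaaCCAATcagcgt
H2-Q7: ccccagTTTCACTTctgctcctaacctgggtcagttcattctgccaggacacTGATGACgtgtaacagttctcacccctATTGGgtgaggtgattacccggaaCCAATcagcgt
H2-M3: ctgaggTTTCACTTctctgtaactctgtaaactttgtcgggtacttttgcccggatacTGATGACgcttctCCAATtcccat

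TTTCACTT followed by TGATGAC occurred in H2-T22, H2-Q4, H2-Q6, H2-Q7 and H2-M3. The classical gene H2-D1 also held both words, with first bases at -150 and -104 from its start. H2-K1, the other classical gene, held TTTCACTT without TGATGAC. Among 32851 RefSeq promoters of the same length, searched on both strands, 1.6% held TTTCACTT and 3.23% held TGATGAC. Both words were searched after the promoters had been seen, so their presence is a description. From the first base of TTTCACTT to that of TGATGAC the distance was 48 bases in H2-T22, 46 bases in H2-Q4, H2-Q6 and H2-Q7, and 52 bases in H2-M3. The spaced TTTC pair was found in H2-T23 and H2-T22 and in 3.44% of all promoters, and in H2-T22 it overlaps TTTCACTT. CCAAT was present in each gene and in 37.4% of promoters. TGACGTCA, the palindromic CRE, matched none of the 6 and 1.79% of promoters. The printed stretches of H2-Q6 and H2-Q7 were 97.4% identical (111 of 114 bases), and that of H2-Q4 was 89.6% identical to H2-Q6. A match says only that the letters are present, and a missing match only that they are absent from this window.

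**Figure D1:**
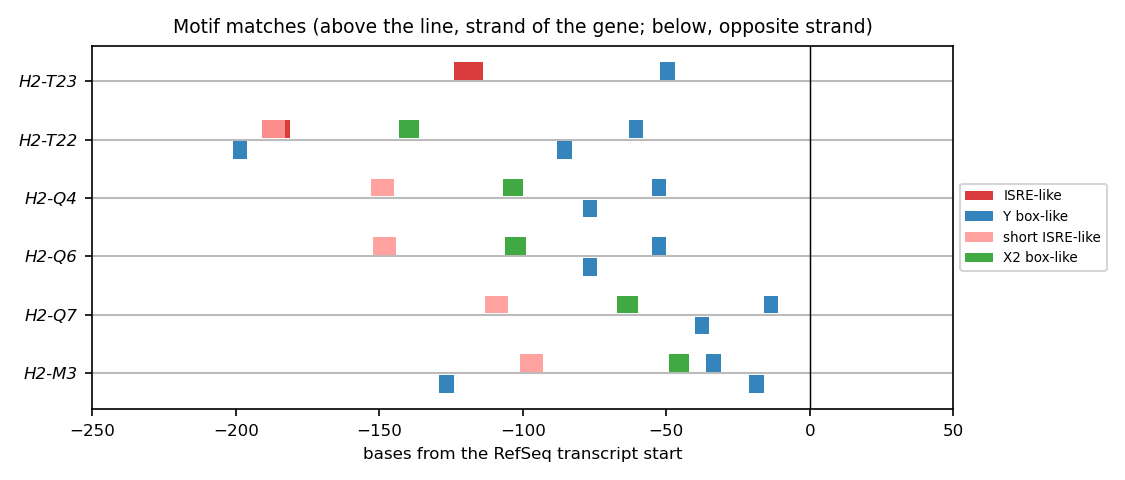
Positions of the motif matches in the promoters of the 6 genes, with distance from the RefSeq start site in bases on the x axis and 1 line per gene (above it the gene's strand, below it the opposite strand). ISRE-like is the spaced TTTC pair, short ISRE-like TTTCACTT, X2 box-like TGATGAC and Y box-like CCAAT. The TTTCACTT and TGATGAC marks lie 46 to 52 bases apart in 5 genes. The H2-T23 window, set on a RefSeq start inside its gene interval, has the spaced TTTC pair and CCAAT without them.

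Levels of the 6 genes split by sample type. In the bulk control tumors all were expressed, with H2-T22 at 53.12 and 30.14 TPM, H2-Q4 at 47.47 and 28.98 TPM and H2-T23 at 40.87 and 17.91 TPM. H2-Q7 stood at 13.7 and 7.1 TPM, H2-Q6 at 8.11 and 3.83 TPM and H2-M3 at 4.65 and 2.5 TPM in the same tumors. In control libraries of sorted and cultured cells only the first 3 genes were above 1 TPM. H2-T22, H2-Q4 and H2-T23 were at 18.75 and 15.69, 16.62 and 13.15, and 5.12 and 6.29 TPM in the sorted control cells. In cultured control cells the same genes were at 12.08 and 13.87, 9.07 and 9.68, and 2.97 and 2.61 TPM. H2-Q7 was listed at 0 in all 6 cultured libraries and did not exceed 0.31 TPM in sorted cells. H2-Q6 did not exceed 0.17 TPM and H2-M3 did not exceed 0.8 TPM in either.

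Between control libraries, H2-T23, H2-T22 and H2-Q4 were higher in bulk tumors than in sorted cells by limma on log2(TPM + 1), a scale on which changes of weakly expressed genes are understated. The log2 fold change was 2.07 for H2-T23 (adjusted p = 0.00191), 1.18 for H2-T22 (adjusted p = 0.000736) and 1.27 for H2-Q4 (adjusted p = 0.000306). A gene is called here at an adjusted p under 0.05 over all genes tested and a fold of at least 1.5, and 8.27% of genes were called higher in this comparison. Bulk control tumors were also above cultured controls for these 3 genes, where 13.5% of genes were called higher, with log2 fold changes of 2.89 for H2-T23, 1.56 for H2-T22 and 1.88 for H2-Q4 (limma adjusted p = 0.0001, 5.23e-05 and 7.99e-06). H2-Q6, H2-Q7 and H2-M3 were at or near 0 in sorted and cultured controls and passed the filter on mean TPM through the bulk tumors, where they are high, so their levels are a description and enter no count. H2-M3 had 0.1 and 0.06 TPM in sorted and 0.05 and 0 TPM in cultured controls, H2-Q7 had 0.02 and 0 TPM in sorted controls, and the other values were listed at 0. Sorted against cultured controls, of H2-T23, H2-T22 and H2-Q4 only H2-Q4 was called, at 0.61 (limma adjusted p = 0.0207), where 12.4% of genes were called higher. That call was lost without either cultured control or without sorted control replicate 1 (limma adjusted p = 0.0606 to 0.157). In bulk samples, fewer cells of a type and less RNA per cell cannot be told apart. The labels do not say whether libraries of a group came from separate tumors or cultures, so the p-values measure the spread between these libraries, which may be technical.

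**Figure D2:**
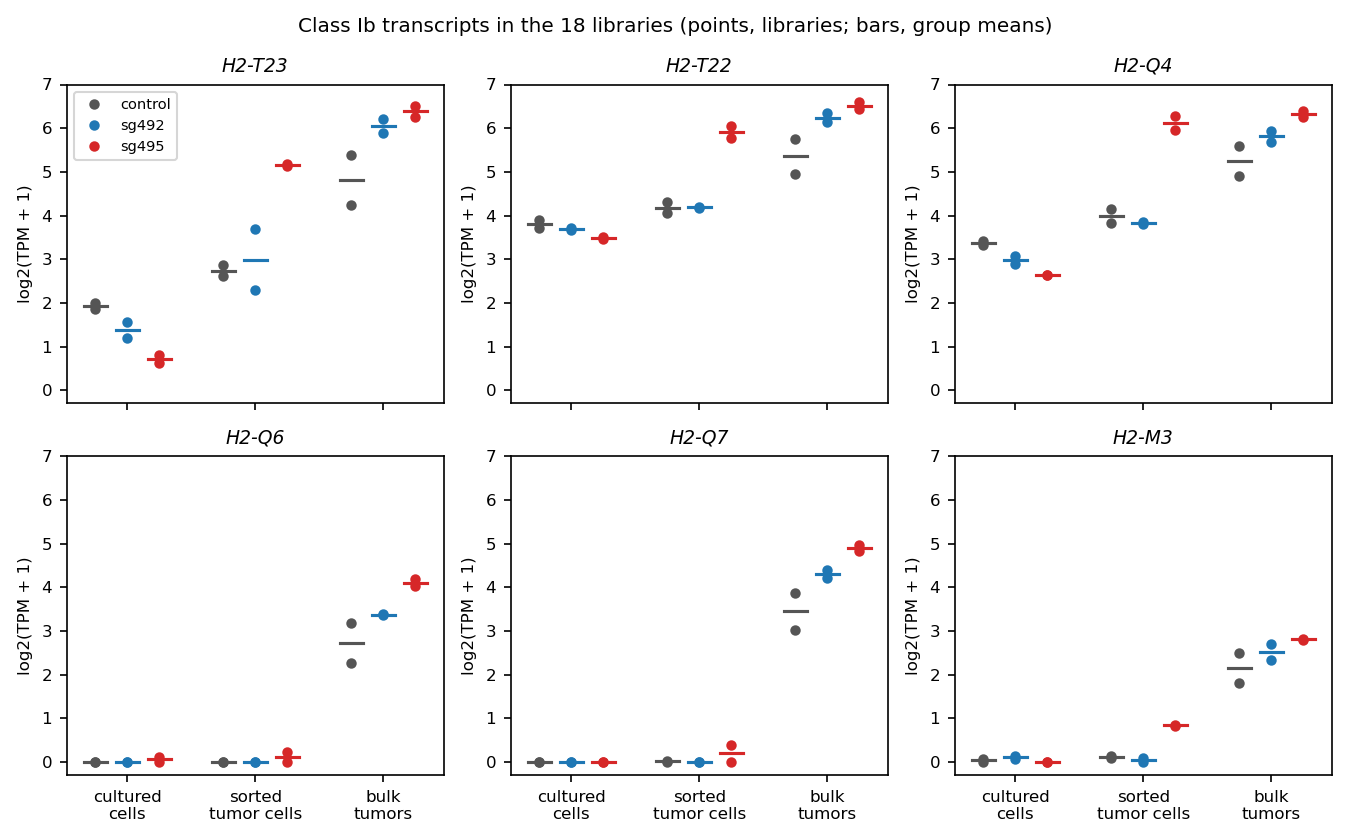
TPM of the 6 genes in each of the 18 libraries, as log2(TPM + 1) by sample type and guide, with 1 point per library and bars at the group means. H2-T23, H2-T22 and H2-Q4 have values above 0 in every library, whereas H2-Q6, H2-Q7 and H2-M3 lie at or near 0 outside bulk tumors.

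In sorted tumor cells, H2-Q4 and H2-T22 rose with sg495, and H2-T23 had the larger difference with the larger error. H2-Q4 measured 61.24 and 76.33 TPM with sg495 against 16.62 and 13.15 TPM in controls, a 4.39-fold increase (log2 fold change 2.14, SE 0.153, limma adjusted p = 0.0082). H2-T22 measured 53.64 and 65.28 TPM against 18.75 and 15.69 TPM, a 3.31-fold increase (log2 fold change 1.73, SE 0.134, limma adjusted p = 0.00964). H2-T23 measured 34.13 and 34.99 TPM against 5.12 and 6.29 TPM, a 5.32-fold difference that missed the threshold (log2 fold change 2.41, SE 0.421, limma adjusted p = 0.0663). For each of these genes both sg495 libraries lay above both controls, as did 17.9% of all genes tested. Thus 2 of the 3 genes that passed the filter of a mean of 1 TPM were called, against 0.605% of genes called higher. H2-T23 passed the threshold when the spread was estimated from the sg495 and control libraries alone (adjusted p = 0.00907) and when either library labeled sg492 was left out (adjusted p = 0.0185 and 0.0139 by limma). The libraries labeled sg492 held H2-T23 at 11.92 and 3.88 TPM. Leaving out either sg495 library removed both calls (limma adjusted p = 0.101 or 0.11 for H2-T22 and H2-Q4), and leaving out control replicate 2 removed that of H2-T22 (adjusted p = 0.0633). The calls of H2-T22 and H2-Q4 were also lost without the expression filter (limma adjusted p = 0.0593 and 0.0547).

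The remaining 3 genes stayed near 0 in sorted cells with sg495 and did not pass the filter. H2-M3 was at 0.77 and 0.8 TPM, against 0.1 and 0.06 TPM in controls. H2-Q6 was at 0.17 and 0 TPM and H2-Q7 at 0 and 0.31 TPM. The leukocyte marker sum was 8.94 to 14.1 TPM with sg495 and 4.85 to 5.91 TPM in controls, most of it from Cd68, which cultured cells also contained at 1.11 to 3.05 TPM. The defining leukocyte gene Ptprc (CD45) was at 0.15 and 0.02 TPM with sg495 and at 0 and 0.03 TPM in controls, Tyrobp was listed at 0 in all sorted libraries except 1 with sg495, at 0.48 TPM, and 1 of the 9 entries was at 0 in both sg495 libraries. T cell markers, 6 in all, summed to at most 0.97 TPM. The share of TPM from mitochondrial genes was 8.02% in sg495 replicate 1, above the 2.56 to 6.70% of the other 17 libraries. The part of these values in the result was not tested.

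The libraries labeled sg492 did not show the increase. In sorted cells they held H2-T22 at 17.42 and 17.1 TPM and H2-Q4 at 12.92 and 13.42 TPM. None of the 3 genes tested was called against control or reached an unadjusted p under 0.05 by limma, where 0.0388% of genes were called and 7.13% passed the unadjusted threshold. Differences were 0.25 for H2-T23 (SE 0.421), 0.01 for H2-T22 (SE 0.134) and -0.16 for H2-Q4 (SE 0.153) on the log2 scale. Tested directly, sg495 exceeded sg492 by 2.29 for H2-Q4 and 1.72 for H2-T22 (limma adjusted p = 0.00844 and 0.0124), with 0.395% of genes called higher, while the H2-T23 difference of 2.16 did not pass (limma adjusted p = 0.101). Without any 1 of the 4 sg492 and sg495 libraries neither H2-Q4 nor H2-T22 passed this comparison (limma adjusted p = 0.0758 to 0.12). Both guides are compared with the same controls.

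Cultured cells showed the opposite sign. H2-T23 was at 2.97 and 2.61 TPM in controls, against 0.75 and 0.55 TPM with sg495, and sg492 lay between at 1.29 and 1.95 TPM. The sg495 libraries were lower than control (log2 fold change -1.20, SE 0.199, limma adjusted p = 0.017). H2-Q4 fell 1.66-fold, from 9.07 and 9.68 TPM to 5.22 and 5.26 TPM (log2 fold change -0.73, SE 0.103, limma adjusted p = 0.0109). H2-T22, at 10.42 and 10.04 TPM against 12.08 and 13.87 TPM, had a log2 fold change of -0.31 and was not called (limma adjusted p = 0.0785). In all, 2 of the 3 genes tested were called lower, against 2.03% of genes. The calls rested on every library: without any 1 of the 4 sg495 and control libraries neither passed (limma adjusted p = 0.0543 to 0.0916). With sg492, all 3 genes were below both controls, as were 14.3% of genes, and none was called by limma. The sg492 differences were -0.54 for H2-T23, -0.39 for H2-Q4 and -0.12 for H2-T22, and 2 of the 3 had an unadjusted p under 0.05 against 10.5% of genes, with 0.05% of genes called. Between the guides none was called either, where 2.61% of genes were and 2 of the 3 against 27.5% of genes passed the unadjusted limit.

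Whether the sg495 effect differed between sorted and cultured cells was tested in 1 limma model of the 18 libraries. The differences of log2 fold changes were 3.61 for H2-T23 (SE 0.558, adjusted p = 0.00497), 2.87 for H2-Q4 (SE 0.267, adjusted p = 0.000235) and 2.04 for H2-T22 (SE 0.278, adjusted p = 0.00286). All 3 genes expressed in both sample types were thus called, and 1.86% of genes were called higher. The 3 calls held in each of the 18 fits that left out 1 library. H2-M3, at or near 0 in both sample types apart from sorted sg495 cells, had a difference of 0.76 (adjusted p = 0.197), and H2-Q7 and H2-Q6 had 0.18 and 0.06. With a pseudocount of 0.1 the H2-M3 difference was 2.60 (limma adjusted p = 0.0359). H2-M3 passed the filter through the bulk tumors and did not exceed 0.8 TPM in these cells, so its values are a description.

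**Figure D3:**
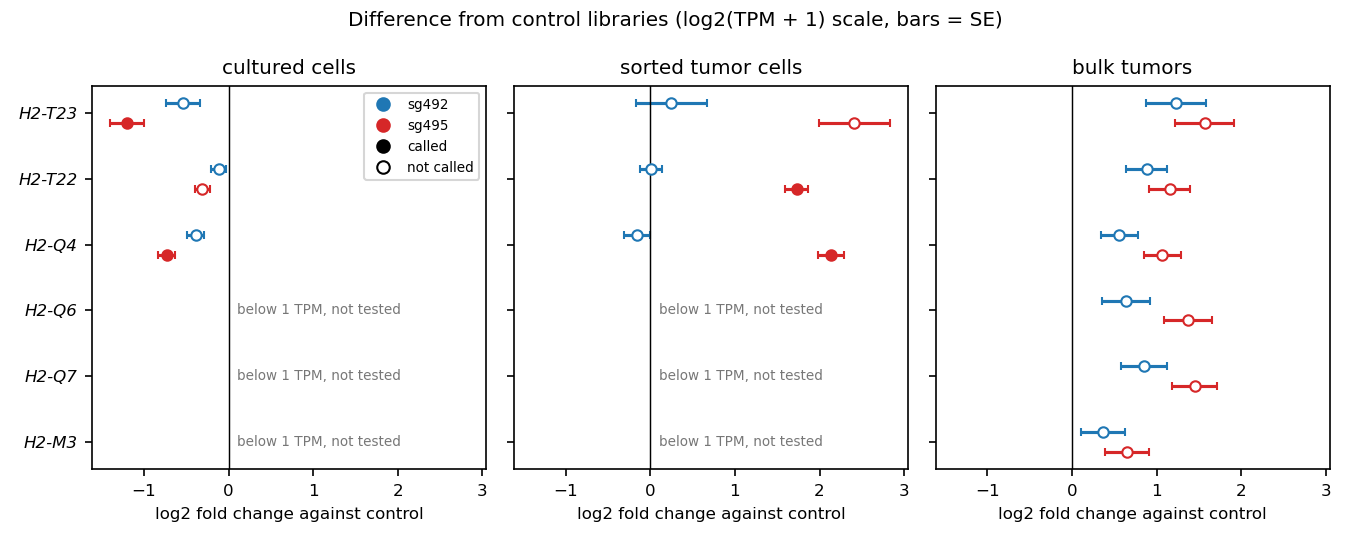
log2 fold change of TPM + 1 (x axis) for sg492 and sg495 against control in each sample type, with SE bars from limma and filled points for called genes. With sg495 the values of H2-T23, H2-T22 and H2-Q4 are 2.41, 1.73 and 2.14 in sorted cells and -1.20, -0.31 and -0.73 in cultured cells.

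In bulk tumors both sg495 libraries were above both sg492 libraries for all 6 genes, as were 21.1% of genes. H2-T23 was at 89.96 and 75.49 TPM with sg495 and at 72.7 and 58.04 TPM with sg492, and H2-T22 at 95.7 and 85.37 TPM and at 80.24 and 69.43 TPM. H2-Q4 was at 82.57 and 75.57 TPM and at 50.46 and 60.37 TPM. The Qa-2 genes followed the same order, with H2-Q7 at 27.21 and 30.44 TPM against 17.56 and 19.9 TPM and H2-Q6 at 15.3 and 17.19 TPM against 9.26 and 9.47 TPM. H2-M3 had 6.03 and 5.97 TPM with sg495 and 5.47 and 4.05 TPM with sg492. All 6 genes were above both controls in both sg495 libraries, as were 31.6% of genes, and 5 of the 6 were with sg492, as were 31.1% of genes.

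None of these bulk differences passed the threshold. For sg495 the log2 fold changes were 1.57 for H2-T23, 1.15 for H2-T22, 1.07 for H2-Q4, 1.38 for H2-Q6, 1.45 for H2-Q7 and 0.65 for H2-M3, with a median of 1.27 against 0.06 over all genes. No gene of the 6 was called by limma (adjusted p = 0.105 to 0.305), where 0.022% of genes were called higher, although all 6 had an unadjusted p under 0.05, as did 15.7% of genes. A fit of all 18 libraries, which shares 1 estimate of the spread, called 5 of the 6 (limma adjusted p = 0.00608 to 0.0401), against 2.74% of genes, and H2-M3 was not among them. Over the bulk fits without 1 library, the sg495 log2 fold changes ran from 0.99 to 2.14 for H2-T23 and from 0.31 to 1.00 for H2-M3. The high ends came without control replicate 1, the higher control for all 6 genes. For sg492 none was called by limma, and 0% of all genes were. The sg492 values ran from 0.36 for H2-M3 to 1.23 for H2-T23, with 4 genes under an unadjusted p of 0.05 against 8.3% of genes. Over the fits without 1 library, the sg492 values ran from 0.66 to 1.80 for H2-T23 and from 0.017 to 0.71 for H2-M3. They were again highest without control replicate 1. Between the guides 0 of the 6 and 0% of all genes were called, and H2-Q6 alone had an unadjusted p under 0.05 (limma, 10.1% of genes).

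Sums of leukocyte and fibroblast markers followed the same order in these tumors. Leukocyte markers summed to 379 to 496 TPM in controls, 570 to 677 TPM with sg492 and 751 to 820 TPM with sg495, and T cell markers to 6.98 to 15.7, 11.9 to 13.4 and 21.9 to 31.5 TPM, the sg492 sums lying inside the control range. B cell markers, 3 genes, went the other way, with 2.08 to 3.37 TPM in controls, 2.36 to 2.42 TPM with sg492 and 1.64 to 1.89 TPM with sg495. Fibroblast markers, 5 genes, summed to 165 to 208, 232 to 269 and 286 to 470 TPM, while the endothelial sums, over 4 genes, were 48.7 to 54.4, 58.0 to 59.7 and 58.1 to 59.9 TPM. Bulk control replicate 2, which had the lowest value of all 6 genes, also had the lowest leukocyte sum. The part of these cells in the bulk values was not tested.

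Against culture alone, the sg495 effect was higher in bulk tumors by 2.77 for H2-T23 (adjusted p = 0.0296), 1.47 for H2-T22 (adjusted p = 0.023) and 1.80 for H2-Q4 (adjusted p = 0.00805 by limma). In this comparison 1.6% of genes were called higher. H2-Q7 had a difference of 1.45, H2-Q6 of 1.32 and H2-M3 of 0.69, but these genes were at or near 0 in culture and passed the filter through the bulk tumors, so these values stay close to the bulk differences themselves. The count over the 6 genes, 4 with H2-Q7 included, fell to 2 without bulk control replicate 2 or bulk sg495 replicate 2, and to 1 without bulk sg495 replicate 1 or any 1 of the cultured control and sg495 libraries. Between bulk tumors and sorted cells no gene of the 6 was called by limma, where 0.122% of genes were, and 3 had an unadjusted p under 0.05, against 16% of genes. Those were H2-Q4, whose effect was smaller in bulk by 1.07 (adjusted p = 0.101), and H2-Q6 and H2-Q7, which did not exceed 0.17 and 0.31 TPM in sorted cells, so that their differences of 1.26 and 1.27 set a bulk change against genes that were hardly detected. The same holds for their values without bulk control replicate 1, 1.72 and 1.70 (limma adjusted p = 0.00865 and 0.0133). Without bulk control replicate 2, H2-Q4 was (-1.41, limma adjusted p = 0.0209).

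The order of group means was the same at its ends for H2-T23, H2-T22 and H2-Q4, with IgG libraries highest and cultured sg495 cells lowest. The places of IgG and anti-PD1 libraries are a description, as these have no labeled sample type and unlike leukocyte and melanocyte marker sums. For H2-T23 it ran from IgG (424 TPM) through anti-PD1 (258), bulk sg495 (82.7), bulk sg492 (65.4), sorted sg495 (34.6), bulk control (29.4), sorted sg492 (7.90) and sorted control (5.71) to cultured control (2.79), cultured sg492 (1.62) and cultured sg495 (0.65 TPM). The neighbors that overlapped in this order were IgG and anti-PD1, sorted sg495 and bulk control, and sorted sg492 and sorted control. For H2-T22 the anti-PD1 libraries overlapped bulk sg495 and bulk sg492, for H2-Q4 they overlapped bulk sg495 and sorted sg495, and for both genes sorted sg492 overlapped sorted control. Sorted sg495 cells had H2-Q4 at 68.8 ± 10.7 TPM and H2-T22 at 59.5 ± 8.23 TPM (SD, n = 2). Bulk controls had group means of 38.2 and 41.6 TPM for these genes. This difference across sample types was not tested, and for H2-T22 the closest libraries of these groups were at 53.64 and 53.12 TPM. H2-Q6, H2-Q7 and H2-M3 shared the order IgG, anti-PD1, bulk sg495, bulk sg492 and bulk control, and among these bulk groups the sg492 and control tumors overlapped for H2-M3 and for neither of the other genes.

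Over the 18 libraries together the genes fell into 2 trios by Pearson's r of log2(TPM + 1), given as a description because libraries share sample type, guide and cell content. H2-T23, H2-T22 and H2-Q4 had r of 0.970 to 0.983 with one another. H2-Q6, H2-Q7 and H2-M3 had r of 0.977 to 0.997, and pairs that cross the trios had 0.732 to 0.897. Within a sample type, where 6 libraries remain, H2-T23, H2-T22 and H2-Q4 kept r of 0.907 to 0.998 in sorted cells. In cultured cells they had 0.850 to 0.928 with one another and 0.152 to 0.422 with H2-M3. The other trio, at or near 0 in most of these libraries, was not seen in either. In bulk tumors all 15 pairs had r of 0.877 to 0.999. In sorted cells H2-M3 had r of 0.991 with H2-T22 and 0.993 with H2-Q4, near the 0.998 of H2-T22 with H2-Q4, whereas H2-Q6 and H2-Q7, at or near 0 there, had -0.22. The genes with the pattern most like each one, other than the 6 themselves, were Dtx3l, Ifih1 and Parp9 for H2-T23 (r = 0.987 for each) and Apol9b, Gbp7 and Ifi35 for H2-T22 (r = 0.994, 0.990 and 0.990). For H2-Q4 they were Erap1, B2m and H2-D1 (r = 0.983, 0.982 and 0.980). For the other trio they were Ly9, Nfam1 and Epsti1 with H2-Q6, AW112010, Epsti1 and Plbd1 with H2-Q7, and Clec2d, Phf11b and Ifi204 with H2-M3, with r of 0.992 to 1.00.

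The other class I genes give the setting. H2-K1, a classical class I gene, was at 71.73 and 70.52 TPM in sorted controls and at 303.52 and 368.65 TPM with sg495, whereas in culture it was at 32.22 and 30.37 TPM and at 8.55 and 6.69 TPM. The log2 fold changes were 2.22 and -1.91 (limma adjusted p = 0.023 and 0.00192). H2-D1, the other classical gene, rose in sorted cells by 2.71 (limma adjusted p = 0.00969) and had -0.15 in culture (limma adjusted p = 0.362). Without the expression filter the sorted-cell calls of H2-K1 and H2-D1 were lost (limma adjusted p = 0.0894 and 0.0643). That of H2-K1 in culture was kept (limma adjusted p = 0.0157). Of 12 genes that assemble class I molecules, 9 were called higher in sorted sg495 cells, against 0.605% of all genes tested. They included B2m at 2.63, the peptide transporter genes Tap1 and Tap2 at 4.42 and 3.25, and the immunoproteasome gene Psmb8 at 5.07, while the chaperone genes Calr, Canx and Pdia3 had -0.42, -0.23 and -0.03 and were not called. Tapbpl, Erap1, Psmb9 and Psmb10 had 1.58, 1.91, 4.83 and 1.62, and Tapbp was the remaining call. In cultured cells none of the 8 assembly genes tested was called, where 2.77% of genes were called in either direction. Among transcriptional regulators, Nlrc5 at 3.74, Irf1 at 3.57 and Irf9 at 1.55 were called higher in sorted sg495 cells. Nlrc5 was at 23.42 and 21.5 TPM there, against 1.68 and 0.15 TPM in controls. Rfx5, Rfxank and Rfxap, which encode the X box binding complex, were not called.

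**Figure D4:**
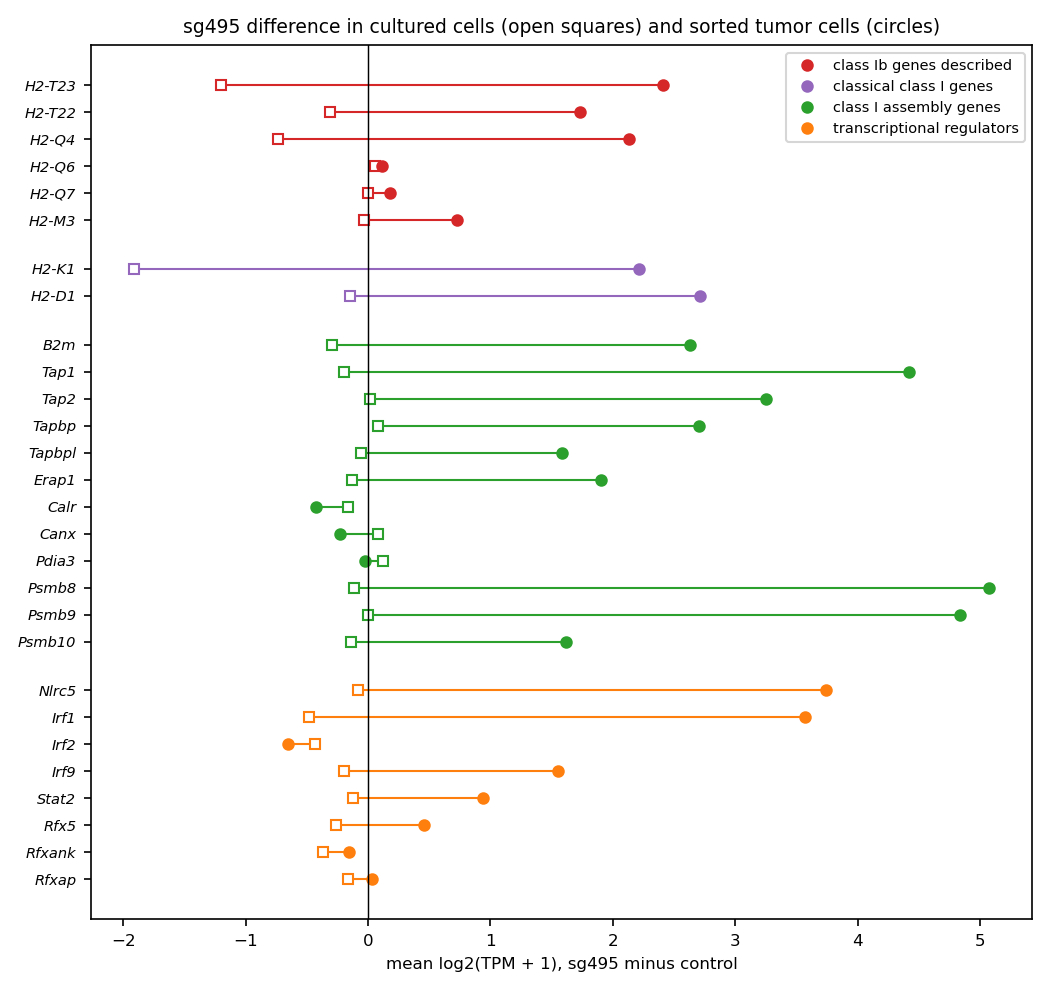
Mean log2(TPM + 1) with sg495 minus control (x axis) in cultured cells (open squares) and sorted tumor cells (circles), with 1 line per class Ib, classical class I, assembly or regulator gene. H2-K1 lies at -1.91 in culture and 2.22 in sorted cells, and H2-T23 at -1.20 and 2.41.

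A wider list of 27 class Ib and class I-like genes, chosen with results of these data known, gave little beyond this. Expression values were listed for 24 of them. None of the 5 tested in sorted cells or the 4 tested in cultured cells was called with sg495, where 0.899% and 2.77% of genes were. Mr1, which presents vitamin B metabolites, had -0.50 in culture (limma adjusted p = 0.0159), under the fold limit. H2-T10, the near relative of H2-T22, was listed at 0 in both sorted controls and at 1.99 and 2.04 TPM with sg495. A further list held 17 genes of immune cells, mostly receptors, of which not all are partners of these molecules. None could be tested in sorted or cultured cells and 6 could be in bulk tumors. Klrd1 (CD94) was at 3.05 and 1.2 TPM in bulk controls, at 7.55 and 6.33 TPM under sg495 and at 4.01 and 3.65 TPM under sg492. None of the 6 was called by limma, where 0.0293% of genes were with sg495 and 0% with sg492.

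Some reads of these genes cannot be told apart from those of relatives. Of the 75-base windows of the transcripts, 13.1% of H2-T23, 24.6% of H2-T22, 7.91% of H2-Q4, 17.9% of H2-Q6 and 22.6% of H2-Q7 occurred in another gene's transcripts, and 0 of H2-M3. H2-Q7 made up 62.8 to 67.8% of the sum of H2-Q6 and H2-Q7 in bulk tumors, and how the counting divided their shared reads is not seen in the table, so each is uncertain taken alone. Their sum was 21.81 and 10.93 TPM in bulk controls and rose without overlap over the sg492 libraries (26.82 and 29.37 TPM) to the sg495 libraries (42.51 and 47.63 TPM).

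In the IgG libraries all 6 genes reached their highest group means. This is a description, because these libraries have no labeled sample type and differ from the other 18 in leukocyte and melanocyte marker sums. H2-T23 was at 322.46 and 526 TPM with IgG and at 99.13, 253.8 and 421 TPM with anti-PD1, and these groups overlapped. H2-Q7 was at 109.41 and 152.38 TPM and at 27.7, 52.63 and 123.29 TPM, and H2-T22 at 120.76 and 154.03 TPM and at 37.52, 83.94 and 138.62 TPM, with overlap as well. H2-Q4 was at 130.74 and 153.13 TPM and at 40.32, 82.23 and 99.55 TPM, without overlap. H2-Q6 was at 51.84 and 88.06 TPM and at 8.74, 30.4 and 51.01 TPM, and H2-M3 at 55.38 and 69.49 TPM and at 25.47, 32.07 and 34.5 TPM. Thus 3 of the 6 genes were below IgG in every anti-PD1 library, as were 15.8% of genes. All 6 log2 fold changes were negative, from -0.84 for H2-T22 to -1.45 for H2-Q6, and none was called by limma (adjusted p = 0.608 to 0.617), and 0% of the 13418 genes tested were. H2-M3 and H2-Q4 had an unadjusted p under 0.05, against 7.18% of genes. Anti-PD1 replicate 1 was lowest for every one of the 6 genes and also had the lowest leukocyte marker sum of the 5 libraries, 6067 TPM, against 8772 to 9787 TPM in the others. Its share of TPM from mitochondrial genes was 21.9%, against 8.63 and 16.6% in the other anti-PD1 libraries and 10.2 and 11.4% with IgG. Without it the log2 fold changes were smaller in size, -0.33 for H2-T23, -0.34 for H2-T22, -0.64 for H2-Q4, -0.76 for H2-Q6, -0.67 for H2-Q7 and -0.88 for H2-M3, and none was called (limma adjusted p = 0.923 to 0.929).

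**Figure D5:**
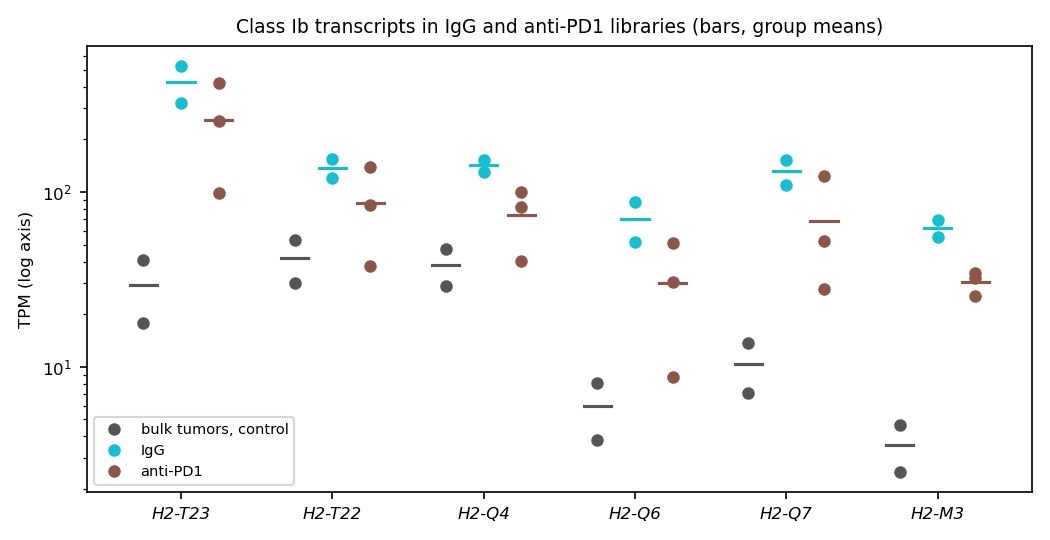
TPM of the 6 genes in the bulk control tumors and in the 2 IgG and 3 anti-PD1 libraries, on a logarithmic TPM axis. Each library is 1 point and bars mark the group means. H2-Q4, H2-Q6 and H2-M3 do not overlap between IgG and anti-PD1, with anti-PD1 at or below 99.55, 51.01 and 34.5 TPM.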

How the data were processed

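RNA was read as single-end 75-base sequences from a directional kit. Per the labels, the authors trimmed reads with cutadapt 2.3, aligned them to mm10 with STAR 2.7.0d and estimated expression with RSEM 1.3.1. They deposited TPM, a length-scaled share of the transcripts, per gene, which keeps no depth, so no counting interval is given, and transcript models follow the Ensembl annotation.

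Values were taken as log2(TPM + 1) and fitted with limma 3.58.1 (R 4.3.3) over genes whose mean was 1 TPM or more in the libraries fitted, within each sample type and, for comparisons between sample types, over the 18 libraries. P-values are two-sided and Benjamini-Hochberg adjusted over all genes tested. The smallest exact permutation p for 1 gene would be 0.333 with 2 against 2 libraries and 0.2 with 2 against 3. Genes named are the 6 class Ib genes, those of the lists of related genes and cell markers, and for each gene the 3 with the highest r. The genes and lists were chosen with earlier results of these data known. A gene of the regulator list and a promoter motif are not reported here. The script was tested on simulated data. Alternatives were another pseudocount, filters, quantile normalization, other fits, replicate block, and leaving out each library. Figures used matplotlib 3.10.9.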

Additional observations from a re-analysis of the deposited data

Results flagged for a closer look

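The sg495 effect on H2-T23, H2-T22 and H2-Q4 differed between sample types by a test of the difference itself, in 1 limma model of 18 libraries. For sorted tumor cells minus cultures the difference of log2 fold changes was 3.61 for H2-T23, 2.04 for H2-T22 and 2.87 for H2-Q4 (limma adjusted p = 0.00497, 0.00286 and 0.000235). For bulk tumors minus cultures it was 2.77 for H2-T23, 1.47 for H2-T22 and 1.80 for H2-Q4 (limma adjusted p = 0.0296, 0.023 and 0.00805). H2-Q7 also passed there, at 1.45 (limma adjusted p = 0.044), but it was listed at 0 in every cultured library, so its value is the bulk difference and does not show a differing effect. Its call was lost in 18 alternatives and kept in 9, with limma adjusted p from 0.00361 to 0.421 over them. Groups of 2 or 3 libraries were too small for a search for outlying libraries.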

How the results depend on the processing

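Over the alternatives tried, 1492 of 1598 values for the class Ib genes kept their direction and their side of the threshold, 61 lost a call, 33 gained one and 12 changed sign. The number of the 6 genes called changed as follows. Fits of all 18 libraries tested H2-Q6, H2-Q7 and H2-M3 outside bulk tumors too. They passed the filter there only through the bulk tumors. Their part in a count that uses sorted or cultured cells is therefore a description. A fit of all 18 libraries called 5 for sg495 in bulk tumors, 4 for sg495 against sg492 in sorted cells and 1 for sg495 in cultured cells. Without the expression filter the counts were 0 for sg495 in sorted cells, 1 for sg495 against sg492 there and 0 for sorted against cultured controls. A mean of at least 5 TPM left 1 for sg495 in cultured cells. Sorted against cultured controls gave 0 after quantile normalization and 2 in a fit of those groups alone, and the sg495 effect in bulk minus cultured gave 2 in a fit of the 8 libraries compared. Leaving out 1 library gave 0 to 5 for sg495 and 0 to 3 for sg492 in bulk tumors, 0 to 3 for sg495 in sorted cells, 0 to 2 against sg492 there, 0 to 2 for sg495 in cultured cells, 1 to 5 for bulk minus cultured, 0 to 2 for bulk minus sorted and 0 to 2 for sorted against cultured controls. The cause of these shifts was not tested, apart from fewer libraries or genes in the fit.

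Signs changed in values near 0. After quantile normalization, H2-T22 was -0.014 for sg492 in sorted cells, H2-Q6 was -0.061 in sorted minus cultured, H2-M3 was 0.18 in bulk minus sorted, and sorted against cultured controls had -0.0045 for H2-Q7 and -0.0083 for H2-M3. Over the fits without 1 library, sg492 in sorted cells ran from -0.45 to 0.95 for H2-T23, -0.11 to 0.13 for H2-T22 and -0.31 to 0.00181 for H2-Q4, sorted minus cultured from -0.056 to 0.17 for H2-Q6 and -0.014 to 0.38 for H2-Q7, and bulk minus sorted from -0.42 to 0.27 for H2-M3.

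Replicate numbers did not pair the libraries: same-numbered differences had r of -0.126 to 0.051 between groups of a sample type and 0.0851 between IgG and anti-PD1. With the replicate block, 5 of the 6 genes were called lower in anti-PD1 libraries, with 1 residual degree of freedom, and the counts for sg495 in sorted and in cultured cells were 2 and 2. Crossing the numbers for sg492 in bulk tumors, added after seeing the data, called 0. With 2 libraries a group and TPM alone, small differences in the weakly expressed genes were not detectable.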
